A study of Drosophila melanogaster with 5 samples.

Results

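The genes described here encode the proteins of the mitochondrial ribosome of Drosophila melanogaster. They were chosen by name, as every row of the deposited table whose gene name starts with mRpL (large subunit) or mRpS (small subunit), and no measured value was used. The rule found 72 of the 17528 features, 46 of the large and 26 of the small subunit. A pair of mitoribosomal proteins that carry other names, tko and bonsai, were outside the rule and are given separately.

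The study followed testes of bam mutant males as their spermatogonia were made to differentiate by a pulse of Bam, the switch protein that ends the mitotic divisions of the male germ line. Every library came from males with the genotype hs-bam; bam[1]/bam[86], which carry mutant alleles of bam on both homologs and a bam transgene under a heat shock promoter. Mid to late pupae raised at 25 °C were heat shocked at 37 °C for 30 min and sampled at 8, 16, 24 and 32 h after it (post heat shock, PHS), against the same genotype given no heat shock (no HS). PolyA RNA was sequenced from about 100 pairs of testes with seminal vesicles pooled for each library, 1 library at each of the 5 points.

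The no HS library shares the transgene and the bam alleles with the others, and no heat-shocked testes without the transgene are in this table, so that effects of the heat pulse and of Bam cannot be told apart. Nor is there a no HS library matched in age to each later time, so age of the animals cannot be told apart from time after the pulse. The heat shock promoter is not restricted to the germ line, so somatic cells of the testis can also express the transgene. In whole testes, fewer cells of a type and less RNA per cell cannot be told apart either.

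The mitochondrial ribosome translates the handful of messages made from mitochondrial DNA, which encode core subunits of the respiratory chain and of ATP synthase. Its ribosomal RNAs are transcribed inside the organelle, whereas all of its proteins are encoded in the nucleus, made in the cytoplasm and imported. Some of these proteins descend from the bacterial ribosome and others are found only in mitochondria. In the fly testis, mitochondria are remodelled during spermatogenesis, and after meiosis they fuse into the large nebenkern of the spermatid.

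The libraries held 10356663 reads on features for no HS and 26534001, 21461541, 28766676 and 23114650 at 8, 16, 24 and 32 h PHS. Values are CPM, reads of a gene scaled to a common library size, after the authors' normalization, and 1 CPM stood for 10.3 to 28.6 reads, so that no HS was the shallowest library. The level of bam was 64.7 CPM in no HS and 128, 90.4, 74.2 and 60.5 CPM at 8, 16, 24 and 32 h. Markers of the expected tissue were present: 8 of 8 germ line markers were detected in every library, with a summed level that ranged from 1112 CPM at 32 h to 1589 CPM in no HS. The germ line list includes bam, which the transgene also carries. Against no HS, 4 of the 8 were higher and 4 lower at 8 h (52.5% and 47.5% of all features with a mean of 10 CPM or more). All 8 were lower at 32 h (50%). The 15 spermatocyte markers summed to 216 CPM in no HS and to 205, 163, 380 and 1099 CPM at 8, 16, 24 and 32 h, with comr and sa at 0 in no HS and comr at 0 at 16 h. Most of the 32 h sum came from Rbp4 (400 CPM) and fest (289 CPM). At 32 h 12 of the 15 were higher than in no HS and 3 were lower, namely mia, bol and twe. The 11 markers of the muscle sheath, none at 0, summed to 1439 CPM in no HS and to 1578, 1822, 1906 and 1881 CPM at the later times. The 7 markers of cyst cells and hub, none at 0, summed to 292 CPM in no HS. At 8, 16, 24 and 32 h they summed to 273, 295, 278 and 246 CPM. Lists for spermatids (at most 4.39 CPM), accessory gland (at most 2.38 CPM) and fat body (at most 34.7 CPM) had low sums in every library.

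All 72 genes were detected in all 5 libraries. Their mean level over the libraries had a median of 44.4 CPM (quartiles 30.2 and 64.3, range 1.59 to 152). The median was 63.5 CPM over the 6603 features whose mean over the libraries was 10 CPM or more, which serve as the background throughout and are called the features tested. Of the 72 genes, 70 passed that minimum; mRpL33 and mRpS21 did not, and they are kept in all counts of the genes. These mRNAs are short, with a median exonic length of 783 nt (327 to 2078 nt), against 2289 nt over the features tested. Per kilobase of exon their level was therefore higher than the background, with a median of 52.2 CPM per kb (range 3.36 to 206) against 27.5 CPM per kb. It was well under that of the cytoplasmic ribosomal proteins (1800 CPM per kb) and of the nuclear genes for oxidative phosphorylation (110 CPM per kb).

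Per length, the small subunit genes (median 50.5 CPM per kb) and the large subunit genes (55.1 CPM per kb) stood at similar levels. The highest was mRpL12 on 3L (8956791 to 8957584, BDGP6.54), at 206 CPM per kb. It encodes the counterpart of bacterial L7/L12, the flexible stalk that recruits translation factors, and the bacterial protein is present in several copies per ribosome. Only mRpS5 and mRpS21 lay under 20 CPM per kb, at 6.09 and 3.36 CPM per kb.

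**Figure D1:**
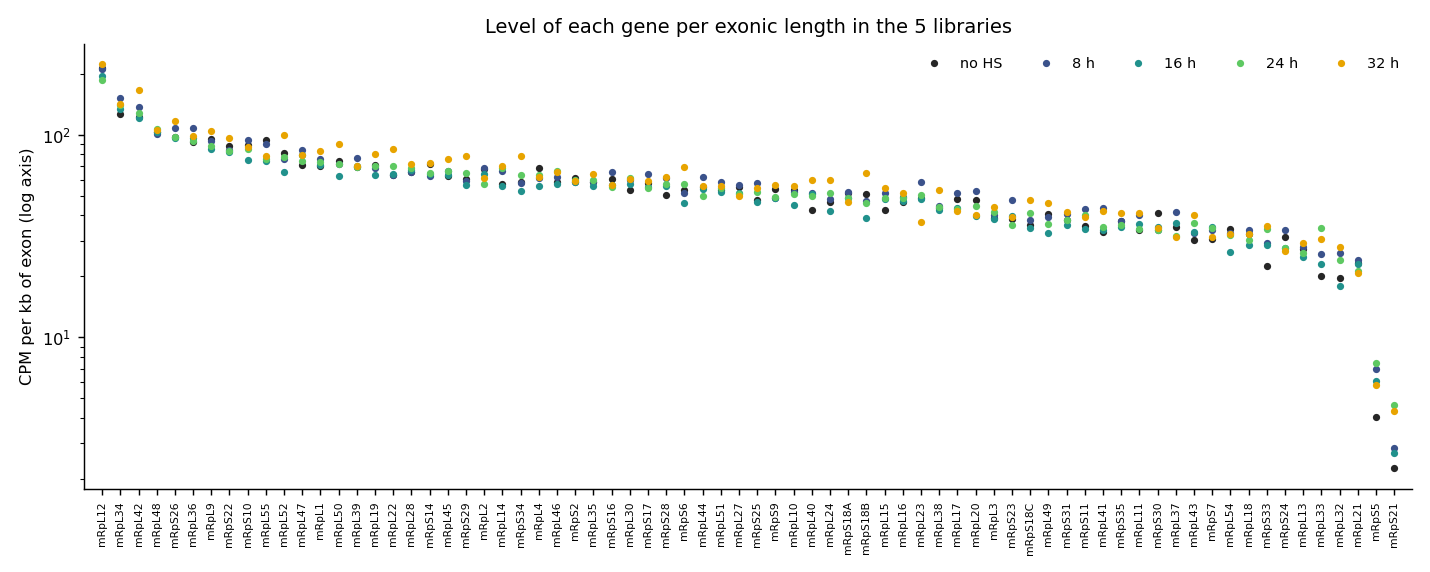
Level of each of the 72 genes in CPM per kb of exon (log axis), with 1 point for each of the 5 libraries and the genes ordered by their mean. Most genes lie between 20 and 150 CPM per kb with the 5 libraries close together, mRpL12 stands at the top at a mean of 206 CPM per kb, and mRpS5 and mRpS21 stand apart at the bottom.

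As a group the genes moved little, and their share of reads was higher at 8 h, lower at 16 h and highest at 32 h PHS. They held 0.341% of the library's reads in no HS (95% Clopper-Pearson interval 0.338% to 0.345%) and 0.362%, 0.323%, 0.341% and 0.387% at 8, 16, 24 and 32 h, where the last had an interval of 0.384% to 0.389%. Their summed normalized level was 3443 CPM in no HS and 3589, 3288, 3435 and 3775 CPM at the later times. These intervals and all those below cover counting error only; reads amplified by PCR are not independent molecules, and with 1 library per time the spread between animals is unknown, so that no test between conditions could be made and the values compare libraries.

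**Figure D2:**
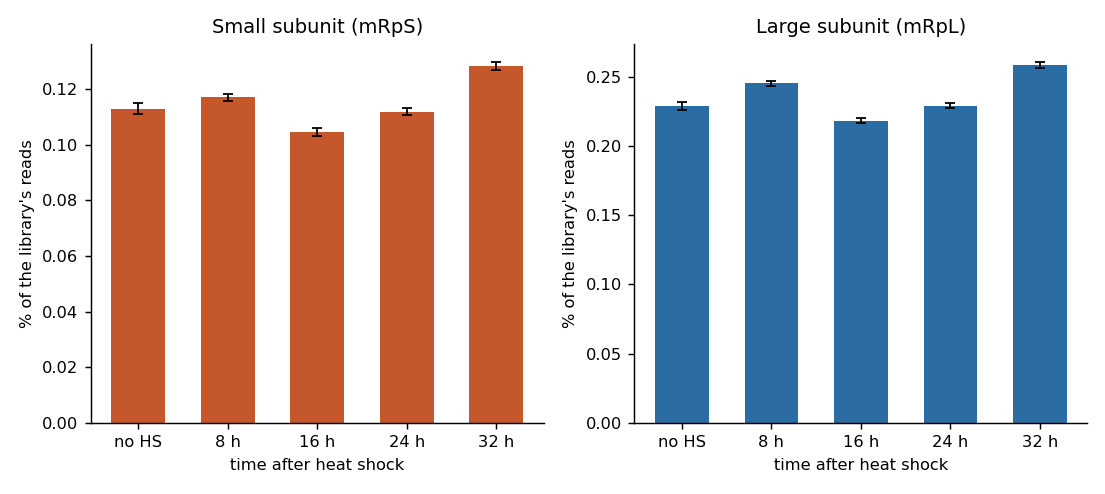
Percentage of each library's reads held by the small subunit genes (left) and the large subunit genes (right) at each time, with 95% Clopper-Pearson intervals as error bars. Both subunits have their lowest bar at 16 h (0.105% small, 0.218% large) and their highest at 32 h PHS (0.128% small, 0.258% large).

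The change of a gene is the difference of its log2(CPM + 1) between a later library and no HS. At 8 h PHS the median change was 0.08 (quartiles −0.02 and 0.19), against 0.01 over the features tested. Higher than no HS were 50 of the 72 genes, beside 52.5% of the features tested, and 22 were lower, beside 47.5%. The interval of the ratio lay above 0 for 22 genes (background 24.4%) and below 0 for 4 (21.8%). The 362 features tested with under 750 nt of exon had a median of 0.08, with 62.4% higher than no HS.

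At 16 h the median change was −0.05 (−0.15 to 0.02), against 0.00 over the features tested. Lower than no HS were 48 genes (49.5% of features tested), and 24 were higher (50.5%). The interval lay below 0 for 17 genes (25%) and above 0 for 5 (25.5%), so that most of these decreases were within the counting error of the libraries compared. The features tested under 750 nt had a median of −0.07 at 16 h, with 64.6% lower. At 24 h the median was 0.02 (−0.10 to 0.14), with 38 genes higher (51.3%) and 34 lower (48.7%), which is near the background on both sides. Intervals lay above 0 for 13 genes (28.6%) and below 0 for 8 (28.1%) at that time. The sign of the 24 h median depended on the baseline: it was −0.06 against the 8 h library.

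At 32 h PHS the genes were higher than in no HS more often than other features were. The median change was 0.14 (0.02 to 0.29), against −0.00 over the features tested. Of the 72 genes 56 were higher, beside 50% of features tested, and 16 were lower, beside 50%. The interval lay above 0 for 35 genes (30%) and below 0 for 7 (33.3%). With the 8 h library as the baseline the 32 h median was smaller, at 0.06, and 45 genes were higher (47.6%) against 27 lower (52.4%).

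The changes were small for single genes. Past 1.2-fold, 25 genes were higher (16.6%) and 1, mRpL23, was lower (21.2%) at 32 h. At 8 h 11 were higher (9.44%) and 1 lower (6.53%). Of the 16 h values 2 were higher (9.84%) and 6 lower (11.7%), and of those at 24 h 7 were higher (13.9%) and 2 lower (14.6%). Past 1.5-fold, the genes that were higher numbered 1 (1.04%), 0 (0.924%), 3 (2.92%) and 1 (3.27%) in order of time, and 0 were lower in any library (0.575%, 2.23%, 4.6% and 6.62%). No gene of the 72 passed 2-fold in either direction, beside 0.121%, 0.136%, 0.606% and 0.742% of the features tested that were higher and 0.136%, 0.424%, 1.42% and 2.09% that were lower, again in order of time.

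The spread of changes among the genes was narrower than among all features: its SD was 0.16, 0.16, 0.21 and 0.22 at 8, 16, 24 and 32 h over the 72 genes, against 0.21, 0.26, 0.37 and 0.43 over the features tested. Cytoplasmic ribosomal proteins had a like spread, with an SD of 0.16, 0.16, 0.23 and 0.17. Nuclear genes for oxidative phosphorylation had 0.18, 0.18, 0.28 and 0.64. At 32 h 3 of these 82 genes were higher past 2-fold (0.742% of features tested), with a highest change of 5.20. Their 32 h quartiles were 0.00 and 0.23, against 0.02 and 0.29 for the 72 genes. The minimum of 10 CPM was not applied to these lists. The ratio of a gene's highest to its lowest library had a median of 1.23 (range 1.05 to 2.06), against 1.27 over the features tested. It stayed under 1.5 for 63 of the 72 genes, or 87.5%, against 80.7% of the features tested. The flattest gene was mRpS2, at 56.3 CPM in no HS and 53.9, 53.7, 55.4 and 54.7 CPM at the later times.

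**Figure D3:**
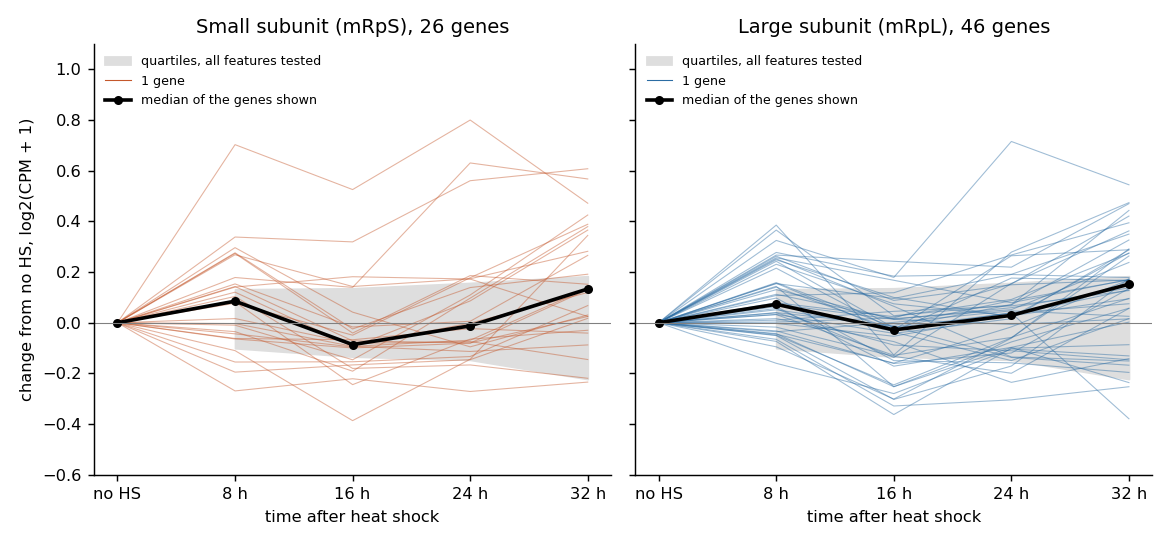
Change from no HS in log2(CPM + 1) over time for each small subunit gene (left, 26 lines) and each large subunit gene (right, 46 lines), with the median in black and the quartiles of all 6603 features tested in grey. In both panels the median lies above 0 at 8 h, is lowest at 16 h (−0.09 small, −0.03 large) and is highest at 32 h PHS (0.13 small, 0.15 large).

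The most uniform step of the course was the one between 8 and 16 h PHS. At 16 h, 64 of the 72 genes were lower than at 8 h, beside 53.7% of the features tested, with a median difference of −0.13 against −0.02. The interval of this step lay below 0 for 39 genes (29.2%) and above 0 for 0 (26%). Both libraries are deep and neither is the shallow no HS library. Only 9 of the decreases passed 1.2-fold (9.74%), and 0 genes passed 1.5-fold (0.318% of features tested higher, 1.51% lower) or 2-fold (0.0606% higher, 0.151% lower), so the step was uniform rather than large.

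Length moved with this step. The 33 genes under 750 nt were all lower at 16 h than at 8 h (median −0.18), and so were 288 of the 362 features tested under 750 nt (median −0.15). Of the 39 genes of 750 nt or more, 31 were lower at 16 h (median −0.09), against 3258 of 6233 features tested of that length (median −0.01). The part of length in the step was not tested beyond these values.

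After 16 h most of the genes were higher again. At 24 h 55 genes were higher than at 16 h and 17 lower, beside 50% of features tested higher, with a median of 0.06. Of the features tested under 750 nt, 70.7% were higher at 24 h than at 16 h (median 0.09). At 32 h 54 were higher than at 24 h (42.9%) and 18 lower, with a median of 0.10 against −0.03 over the features tested, and the interval of this last step lay above 0 for 30 genes (25.2%) and below 0 for 3 (34.6%). By length, the median at 32 h against no HS was 0.18 under 750 nt and 0.13 at 750 nt or more, where the features tested of these lengths had 0.04 and −0.00.

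The full course of an increase at 8 h, a decrease at 16 h and increases at 24 and 32 h was found in 22 of the 72 genes (30.6%), against 9.04% of the features tested. Without regard to the 8 h step, a decrease at 16 h followed by increases at 24 and 32 h was found in 37 (51.4%, against 16.4%). These backgrounds cover features of all lengths, and the courses were not counted by length. Of the features tested under 750 nt, 79.6% were lower at 16 h than at 8 h, and 70.7% were higher at 24 h than at 16 h. For 37 genes the highest library was 32 h (26.1% of features tested), for 23 it was 8 h (20.9%), and the remaining 12 were spread over the other libraries. The lowest library was 16 h for 34 genes (16.7%) and no HS for 20 (22.1%). Pearson's r of each gene with the median course of the other 71 had a median of 0.65 over the 5 libraries, was over 0.8 for 24 genes and was below 0 for 12. It is a description over 5 points that share library and depth, and the same r was not counted over the features tested.

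The spermatocyte markers summed highest at 32 h, as the 72 genes did. The muscle sheath markers were also high at 32 h (1881 CPM), but their course differed from that of the 72 genes before then. They summed to 1822 CPM at 16 h, where the 72 genes were lowest (3288 CPM). Their highest sum was at 24 h (1906 CPM), where the 72 genes stood near no HS (3435 against 3443 CPM). The 13 S phase genes, none at 0, summed to 2911 CPM in no HS and to 2981, 2233, 1211 and 1009 CPM at 8, 16, 24 and 32 h. All 13 were lower at 16 h than at 8 h (median −0.45), as most of the 72 genes were, and all 13 were lower than no HS at 24 and 32 h. The part of these cell and cycle markers in the 16 h and 32 h levels was not tested.

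The small and large subunits were set side by side at each time. At 8 h the median change was 0.09 in the small and 0.07 in the large subunit, with a difference of 0.01. At 16 h it was −0.09 in the small and −0.03 in the large subunit, with a difference of −0.06. At 24 h the medians were −0.01 and 0.03 for the small and the large subunit, and at 32 h they were 0.13 and 0.15, with differences of −0.04 and −0.02.

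With 1 library per time and genes that are not replicates, these differences have no test. The step between 8 and 16 h was −0.13 for the small and −0.14 for the large subunit, with 22 of 26 small and 42 of 46 large subunit genes lower. In that step 53.7% of the features tested were lower, and 79.6% of those under 750 nt. At 32 h, 20 of 26 small and 36 of 46 large subunit genes were higher than in no HS, beside 50% of the features tested. The summed CPM of the small over that of the large subunit was 0.495 in no HS and 0.478, 0.480, 0.489 and 0.497 at the later times, so the balance of the subunits moved by under 5%. The sign of the difference in medians was not stable at 16, 24 and 32 h. It changed with the 8 h library as the baseline at 16 h (0.01) and at 24 h (0.06). In the mammalian mitochondrial ribosome the counterparts of mRpS30 and mRpS18A sit in the large subunit, and counting these 2 genes there turned the 32 h difference to 0.01.

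Among the proteins of the large subunit, those inherited from bacteria include the stalk, the peptidyl transferase region and the exit tunnel. For the stalk, mRpL12 had 158 CPM in no HS and 156, 144, 137 and 164 CPM at 8, 16, 24 and 32 h. It was the most abundant of the 72 genes, its lowest library was 24 h (−0.20, interval −0.28 to −0.12) and at 32 h it was close to no HS (0.06, −0.03 to 0.14). Its neighbour in the stalk base, mRpL10, had 48.3 CPM in no HS and 46.8, 40.4, 45.8 and 50.3 CPM later, again with a decrease at 16 h (−0.25, −0.42 to −0.10). The stalk-base protein mRpL11 had 24.7 CPM in no HS and 29.6, 26.6, 25.1 and 30.1 CPM later, and unlike the other stalk genes its 8 h interval lay above 0 (0.25, 0.05 to 0.47).

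Some of the named genes encode proteins that line or surround the exit tunnel, and they were chosen in part for their values. The gene mRpL23 on 3L (2372844 to 2373704), whose product sits at the mouth of the tunnel in bacteria, had 34.2 CPM in no HS and 40.6, 33.7, 35.1 and 26.1 CPM at 8, 16, 24 and 32 h. It had the largest decrease of the 72 at 32 h (−0.38, −0.58 to −0.20), after an increase at 8 h (0.24, 0.07 to 0.43), and from 8 to 32 h it alone was lower past 1.5-fold (−0.62; background 7.71%). For mRpL4, which reaches into the tunnel wall, the values were 68.9 CPM in no HS and 61.6, 56.6, 64.1 and 62.9 CPM, lower at every time and most at 16 h (−0.28, −0.42 to −0.15). The gene mRpL22, its partner in the tunnel wall, had 61.4 CPM in no HS and 61.6, 62.3, 68.4 and 82.6 CPM, level up to 16 h and higher at 32 h (0.42, 0.30 to 0.56). For mRpL24, at the tunnel exit, the values were 40.6 CPM in no HS and 42.3, 36.8, 45.3 and 52.5 CPM, with a 32 h change of 0.36 (0.21 to 0.53).

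The core protein mRpL2, near the peptidyl transferase centre, had 70.0 CPM in no HS and 70.8, 66.4, 59.3 and 63.4 CPM later, with its lowest level at 24 h (−0.24, −0.37 to −0.11). The gene mRpL20, for a protein that binds the large ribosomal RNA early in bacterial assembly, had 28.6 CPM in no HS and 31.7, 23.9, 26.7 and 24.2 CPM, a 32 h change of −0.24 (−0.45 to −0.04). Other bacterial-type proteins were higher late. The gene mRpL1, for the protein of the mobile L1 stalk of the bacterial ribosome, had 85.8 CPM in no HS and 92.8, 86.7, 88.9 and 101 CPM (0.24, 0.13 to 0.35 at 32 h). The gene mRpL28, counterpart of bacterial L28, changed by no more than 0.13 at any time, with 76.2 CPM in no HS and 76.8, 78.7, 79.9 and 83.3 CPM. The gene mRpL15, for the counterpart of bacterial L15, was one of 4 whose interval lay above 0 at all 4 times, with 43.6 CPM in no HS and 53.1, 49.7, 49.9 and 55.9 CPM. These comparisons share the no HS library, and the same count was not made over the features tested.

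The low large subunit genes had wide intervals. The gene mRpL32, whose product is matured by the m-AAA protease before it joins the ribosome in yeast and mouse, had 13.8 CPM in no HS and 18.4, 12.6, 17.0 and 19.6 CPM. Its course had the deepest dip between 8 and 16 h (−0.51), and it was higher than no HS at 8 h (0.39, 0.14 to 0.69) and 32 h (0.47, 0.23 to 0.78). The gene mRpL33, counterpart of bacterial L33, on X (4321764 to 4322231) had 7.01 CPM in no HS and 9.03, 8.07, 12.2 and 10.7 CPM, on 72 reads in no HS and 170 to 347 reads later. Its changes at 24 h (0.72, 0.42 to 1.18) and 32 h (0.54, 0.22 to 1.01) are among the largest here, and its counting error is among the widest.

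Of the 18 large subunit genes for proteins found only in mitochondria, 15 were higher at 32 h, against 21 of 28 of bacterial type. Over the features tested, 50% were higher. The gene mRpL42 had 72.3 CPM in no HS and 80.9, 71.4, 76.1 and 98.7 CPM, an increase seen mainly at 32 h (0.44, 0.33 to 0.57). The gene mRpL40 had 30.6 CPM in no HS and 37.0, 36.4, 35.8 and 42.7 CPM, with intervals above 0 at all 4 times and a 32 h change of 0.47 (0.30 to 0.67). The gene mRpL45, whose mammalian protein lies at the tunnel exit and helps to anchor the ribosome to the inner membrane, had 79.0 CPM in no HS and 83.5, 80.3, 84.2 and 95.7 CPM (0.27, 0.16 to 0.39 at 32 h). For mRpL41 both 8 and 32 h stood above the rest, with 19.8 CPM in no HS and 25.8, 20.2, 20.8 and 25.0 CPM.

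Others of this class were flat or lower. The gene mRpL48 had 81.6 CPM in no HS and 79.6, 81.7, 84.3 and 83.0 CPM, and mRpL39 had 79.2 CPM in no HS and 86.7, 79.9, 78.8 and 80.0 CPM. Both were within 0.03 of no HS at 32 h, and mRpL48 shares 20.8% of its exonic bases with other genes. The gene mRpL55 on 3R (19094394 to 19094905) had 42.7 CPM in no HS and 40.8, 33.8, 34.4 and 35.7 CPM, lower with intervals below 0 at 16, 24 and 32 h (−0.33, −0.30 and −0.25). For mRpL54 the decrease was clearest at 16 h (−0.36, −0.62 to −0.14), with 23.5 CPM in no HS and 22.2, 18.0, 21.8 and 22.0 CPM.

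In the small subunit the most abundant gene was mRpS22, whose human counterpart is mutated in a mitochondrial disease. It had 118 CPM in no HS and 112, 110, 111 and 129 CPM at 8, 16, 24 and 32 h, and its interval lay above 0 only at 32 h (0.13, 0.04 to 0.23). The gene mRpS29, counterpart of the mammalian GTP-binding protein DAP3, had 87.3 CPM in no HS and 84.7, 81.7, 92.8 and 113 CPM, the largest 32 h change among the 10 most abundant genes after mRpL42 (0.37, 0.26 to 0.48). The gene mRpS26 had 80.3 CPM in no HS and 89.4, 79.4, 80.6 and 96.8 CPM, with increases at 8 h (0.15) and 32 h (0.27) around a level course. Further small subunit genes higher at 32 h were mRpS34, at 41.4 CPM in no HS and 41.1, 37.3, 44.7 and 55.9 CPM (0.43, 0.28 to 0.59), and mRpS6, whose bacterial counterpart lies on the platform of the subunit, at 33.3 CPM in no HS and 32.5, 29.0, 35.7 and 43.6 CPM (0.38, 0.21 to 0.57).

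The largest increase of all was in a small subunit gene of low level. The gene mRpS5 on 3L (24537236 to 24543534), for a protein near the messenger entry site of the bacterial subunit, had 6.82 CPM in no HS and 11.7, 10.3, 12.6 and 9.84 CPM. It was the sole gene past 1.5-fold at 8 h (0.70, 0.40 to 1.18), and its change was 0.80 at 24 h (0.51 to 1.28). Its no HS value rests on 70 reads. The gene mRpS33 on 3R (16436045 to 16436597) had 11.1 CPM in no HS and 14.3, 14.1, 16.8 and 17.4 CPM, and at 32 h it was the sole gene past 1.5-fold (0.61, 0.35 to 0.96), a count that was 3 with 0.1 CPM added in place of 1 and 0 with 5 CPM. For both genes all 4 later libraries lay above no HS with intervals above 0.

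The lowest of the 72, mRpS21 on 3R (13381276 to 13381809), had 1.07 CPM in no HS and 1.34, 1.28, 2.21 and 2.07 CPM, on 11, 36, 27, 63 and 49 reads. Its 24 h change was 0.63 (0.11 to 2.12), and at 32 h its interval crossed 0. It shares 48.0% of its exonic bases with CG8870, and the strand setting of the authors' counting is not given in the sources used here, so reads in the shared part may have been assigned to neither or either gene. The same doubt holds for mRpS24, with 55.3% of its bases shared with TBC1d7, mRpS14, with 35.8% shared, and mRpL13, mRpL17, mRpL48 and mRpS9, each with over 20%.

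Other small subunit genes were named for their decreases. The gene mRpS30 on X (15786047 to 15788288) had 84.9 CPM in no HS and 70.3, 72.7, 70.2 and 72.0 CPM, and was the only one of the 72 with an interval below 0 at all 4 times (−0.27, −0.22, −0.27 and −0.23). Its lower level was present at 8 h and changed little after that, unlike the course of the group. Features tested with an interval below 0 at all 4 times were not counted. The gene mRpS14, for a protein of the subunit head, had 57.1 CPM in no HS and 49.7, 50.7, 51.5 and 57.8 CPM, lower at 8 h (−0.19, −0.34 to −0.06) and back at the no HS level by 32 h. The gene mRpS24, counterpart of bacterial S3, had 18.8 CPM in no HS and 20.3, 16.5, 16.6 and 16.0 CPM, and its interval crossed 0 at all 4 times (−0.22, −0.49 to 0.03 at 32 h).

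The 3 genes related to bacterial S18 had different courses. The gene mRpS18B had 43.9 CPM in no HS and 40.6, 33.4, 39.6 and 56.0 CPM, with the largest decrease of the 72 at 16 h (−0.39, −0.57 to −0.22) and an increase at 32 h (0.34, 0.20 to 0.51). The gene mRpS18C had 19.0 CPM in no HS and 20.1, 18.3, 21.6 and 25.2 CPM, higher at 32 h (0.39, 0.17 to 0.65). The gene mRpS18A had 30.0 CPM in no HS and 30.3, 28.3, 28.4 and 27.0 CPM, and its 32 h interval crossed 0 (−0.15, −0.35 to 0.05). In mammals the counterparts of mRpS18B and mRpS18C sit in the small subunit and that of mRpS18A in the large one.

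**Figure D4:**
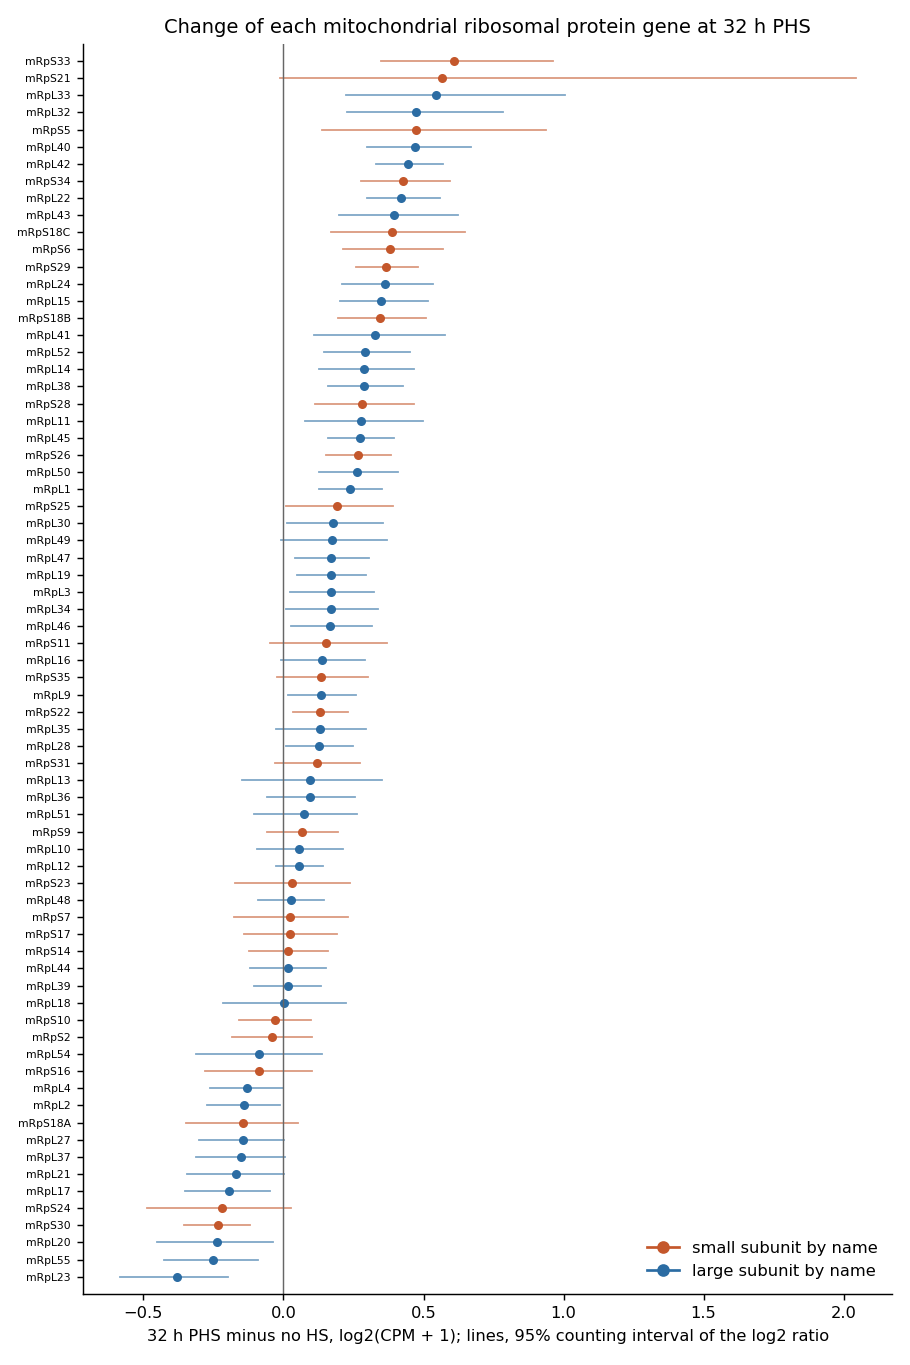
Change of each of the 72 genes at 32 h PHS from no HS in log2(CPM + 1), ranked, with 95% counting intervals of the log2 ratio as lines and the subunits in colour. Both subunits run through the whole ranking, with mRpS33 (0.61) at the top and mRpL23 (−0.38) at the bottom, and 35 of the 72 intervals lie wholly above 0.

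Descent and chromosome did not set groups of genes far apart. At 32 h the median change was 0.17 for the 30 genes classed as found only in mitochondria, with 25 higher. For the 42 of bacterial type it was 0.13, with 31 higher, beside 50% of features tested. The 30 include mRpS18A and mRpS18B, although both are related to bacterial S18. The genes lay on X (11), 2L (12), 2R (11), 3L (17) and 3R (21), with 0 on chromosome 4. Those on X had a 32 h median of 0.18 with 10 of 11 higher, against −0.02 with 46.3% higher over all features tested on X. Those on autosomes had 0.13 with 46 of 61 higher, against 0.01 with 50.6% higher over features tested on autosomes. A divergently transcribed protein-coding gene started head to head within 500 bp of 51 of the 72 genes (70.8%), against 39.3% of the 6549 protein-coding features tested. Examples are mRpL55, 95 bp from ATPsynD, which encodes a subunit of ATP synthase, and mRpS7, 400 bp from Cdk1, which encodes the mitotic kinase.

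The genes outside the naming rule fell within the same range. The S12 protein of the decoding centre, tko, had 30.4 CPM in no HS and 27.6, 26.6, 31.4 and 34.4 CPM, with a 32 h change of 0.17 (−0.01 to 0.37). The S15 protein, bonsai, had 68.4 CPM in no HS and 73.3, 68.2, 72.3 and 79.1 CPM, with a 32 h change of 0.21 (0.08 to 0.34). Both had their lowest library at 16 h and their highest at 32 h, as did many of the 72.

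The 72 genes were also set beside like groups of genes. At 32 h the medians were 0.14 for the mitochondrial and −0.18 for the 91 cytoplasmic ribosomal proteins, of which 78 were lower. Between 8 and 16 h the 72 mitochondrial genes fell by 0.13 in the median, while 73 of the 91 cytoplasmic ones were higher (median 0.07). The 82 nuclear genes for oxidative phosphorylation, which include those for partners of the proteins that mitochondrial ribosomes make, had medians of −0.06, −0.10, 0.01 and 0.12 at 8, 16, 24 and 32 h. They thus stood with the mitochondrial ribosomal proteins at 32 h, with 59 of 82 higher, and apart from them at 8 h, with 52 of 82 lower. With 1 library per time the differences between groups of genes have no test.

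**Figure D5:**
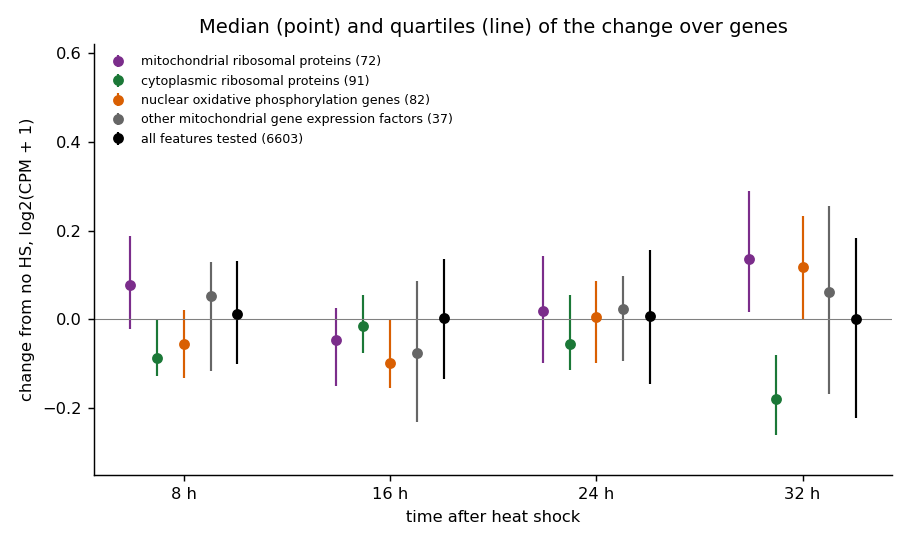
Median (point) and quartiles (line) of the change from no HS in log2(CPM + 1) at 8, 16, 24 and 32 h PHS for the 72 mitochondrial ribosomal proteins, 3 like groups and all 6603 features tested. At 32 h the mitochondrial ribosomal proteins (0.14) and the oxidative phosphorylation genes (0.12) lie above 0 and the cytoplasmic ribosomal proteins (−0.18) below it.

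The other nuclear genes of mitochondrial gene expression, 37 in all, had medians of 0.05, −0.08, 0.02 and 0.06 at 8, 16, 24 and 32 h. At 32 h 19 of 37 were higher, which is near the 50% of features tested. Within them the list of 16 aminoacyl-tRNA synthetases, which includes the synthetase-like paralog Slimp, had a 32 h median of 0.18, the 9 translation factors 0.09, and the 12 factors of transcription and DNA maintenance −0.04. In the synthetase list the 32 h change was below 0 for ArgRS-m, AsnRS-m, GluRS-m, IleRS-m, LeuRS-m and TyrRS-m, and above 0 for the rest. The elongation factor mEFTu1, which brings aminoacyl-tRNAs to the ribosome, had 367 CPM in no HS and 366, 357, 405 and 487 CPM, with a 32 h change of 0.41 (0.35 to 0.46). The valyl-tRNA synthetase ValRS-m had 22.9 CPM in no HS and 28.8, 26.7, 30.1 and 36.4 CPM, with intervals above 0 at all 4 times and a 32 h change of 0.65 (0.46 to 0.88). In the other direction, mtSSB, which coats single-stranded mitochondrial DNA during its replication, had 66.3 CPM in no HS and 49.7, 42.7, 39.5 and 27.3 CPM, lower at every step and by 1.25 on the log2 scale at 32 h (−1.44 to −1.12).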

How the data were processed

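RNA-seq of polyA RNA from 5 pooled testis libraries, 1 per time, was analysed from the table of normalized values. The authors trimmed reads with Trim Galore 0.4.3, aligned them with STAR 2.5.3 to BDGP6, filtered with SAMtools 1.4.1, counted with featureCounts of Subread 1.5.0 and applied TMM scaling (edgeR 3.34.0, R 4.1.0). What they deposited is the log2 of CPM + 1 after this scaling. The plan had taken the table for CPM, so the log2 was undone first. Steps in the CPM gave whole reads for 100% of values (within 0.01 of a whole number), and 0 columns were left unused.

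Changes are differences of log2(CPM + 1), which understate the fold of low genes. Intervals are 95% Clopper-Pearson intervals of the log2 ratio of CPM, without the added 1. No count model was fitted, since 1 library per time leaves no spread to estimate. Background features had a mean of at least 10 CPM.

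Named genes were the 10 highest and 3 lowest by mean CPM, the 5 largest increases and decreases at 32 h and the 3 largest at 8, 16 and 24 h, the S18 paralogs, tko, bonsai, and other mitochondrial gene expression factors past 1.5-fold at any time. The naming rule for the 72 genes used no measured value, but it and the lists were set with earlier results of these data known. The members mRpL10, mRpL11, mRpL15, mRpL22, mRpL24, mRpS2, mRpS6, mRpS7 and mRpS34, mEFTu1, mEFTu2, mEFTs, the split by length, the split by descent and the counts by chromosome were chosen after seeing values. Genes were matched by identifier to the Ensembl annotation of BDGP6.54 (17506 of 17528 found), later than the authors' build, and no coordinates were converted. Alternatives were other pseudocounts, filters, scalings and baselines. The steps were tested on simulated data. Python 3.11.15, numpy 2.4.6, pandas 2.3.3, scipy 1.17.1 and matplotlib 3.10.9 were used.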

Additional observations from a re-analysis of the deposited data

How the results depend on the processing

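With 1 library per time no replicate could be left out, and a gene at 1 CPM rests on 10.3 reads in no HS. No paired analysis was possible because each time has 1 library. Across all alternatives the median change of the 72 genes ran from 0.07 to 0.10 at 8 h, from −0.13 to −0.04 at 16 h, from −0.06 to 0.05 at 24 h and from 0.06 to 0.18 at 32 h, so its sign varied at 24 h alone. Rescaling each library to a total of 1000000 gave 0.10 at 8 h and 0.18 at 32 h, and the upper quartile gave 0.047 at 24 h and 0.17 at 32 h. When no HS and 8 h were averaged as the baseline the medians were −0.091, −0.033 and 0.12 at 16, 24 and 32 h, and with 8 h they were −0.13, −0.063 and 0.064. The small minus large difference was −0.00075 at 16 h and 0.0059 at 32 h with the mean baseline, 0.0061 at 16 h and 0.061 at 24 h with the 8 h baseline, and 0.0075 at 32 h with mRpS30 and mRpS18A counted as large subunit. That last alternative, and those with members of at least 10 CPM or under 5% shared bases, were chosen after seeing the data. With those baselines the reference library itself differs, and for the other shifts the cause was not tested.

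Counts past 1.2-fold and 1.5-fold depended on the pseudocount, since low genes supply the largest changes. With 5 CPM, 3 genes were higher past 1.2-fold at 8 h and 3 at 24 h, against 11 and 7 with 1 CPM, and 0 were higher past 1.5-fold at 24 h, against 3. Past 1.5-fold at 32 h, 3 genes were higher with 0.1 CPM and 3 with a total of 1000000, 2 with the upper quartile and 0 with 5 CPM, against 1. With 8 h as the baseline 13 were higher past 1.2-fold at 32 h, against 25. Over all features the counts grew with looser filters, and with no filter 198 were higher past 2-fold at 32 h, against 49.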

Other observations

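The ribosomal RNAs of the mitochondrion were also in the table, although the libraries were made from polyA RNA, so that their values are no measure of total rRNA. The large one, mt:lrRNA, had 1188 CPM in no HS and 2630, 3112, 4873 and 3761 CPM at 8, 16, 24 and 32 h PHS, higher than no HS at every time. The small one, mt:srRNA, had few reads, with 0.682 CPM on 7 reads in no HS and 2.69, 6.22, 6.06 and 2.87 CPM at the later times. Neither followed the course of the ribosomal proteins, whose summed level was lowest at 16 h.

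Among other factors of mitochondrial translation, the paralogs mEFTu1 and mEFTu2 of elongation factor Tu were both higher at 32 h. The gene mEFTu2 had 53.7 CPM in no HS and 58.8, 59.8, 69.1 and 79.5 CPM later, a 32 h change of 0.56 (0.43 to 0.70). The gene for their nucleotide exchange factor, mEFTs, had 112 CPM in no HS and 94.4, 95.2, 87.8 and 92.8 CPM later, a 32 h change of −0.27.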
